A study of Mus musculus with 6 samples.

Results

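The genes described here are 9 genes of canonical olfactory signal transduction and receptor transport, Gnal, Adcy3, Cnga2, Cnga4, Cngb1, Pde1c, Stoml3, Rtp1 and Rtp2. They were taken by name, with no threshold on a measured value, out of 35450 genes in the deposited data, and all 9 had enough reads to be among the 16679 genes tested. They were measured in the vomeronasal organ, a paired chemosensory structure along the nasal septum whose neurons detect pheromones, by sequencing of poly(A) RNA from mice at postnatal day 60. The 2 groups were 3 wild-type mice (Cnpy1+/+) and 3 littermates homozygous for a Cnpy1 knockout allele (Cnpy1-/-), each with 2 males and 1 female. Wild-type replicate 2 and knockout replicate 3 were the females. The labels do not describe the allele further. Each library came from both organs of 1 mouse after removal of the outer bone, so it holds RNA of neurons, supporting cells, glands, vessels and any neighbouring epithelium that was dissected with them.

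In neurons of the main olfactory epithelium, an odorant receptor activates the G protein subunit that Gnal encodes, which turns on adenylyl cyclase 3, the product of Adcy3. The cyclic AMP it makes opens a channel in the cilium membrane built from the products of Cnga2, Cnga4 and Cngb1, and the phosphodiesterase encoded by Pde1c breaks the messenger down. Stoml3 encodes a stomatin-family protein of olfactory cilia, and Rtp1 and Rtp2 encode proteins that help odorant receptors reach the cell surface. Neurons of the vomeronasal organ carry microvilli in place of such cilia and signal mainly through phospholipase C and the channel encoded by Trpc2, so this list is not the transduction pathway for which the organ is known.

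The libraries held between 60969508 and 71670766 estimated reads. Cnpy1 itself lay between 280.0 and 325 CPM in wild type and between 67.2 and 77.6 CPM in the knockout, a change of -2.04 on the log2 scale (SE 0.08, adjusted p = 1.75e-05 by edgeR). CPM are a gene's reads scaled to the size of its library, with the trimmed mean of M-values (TMM) as the scaling factor. Trpc2, a marker of the labelled tissue, was present in every library, between 234 and 340 CPM. Omp, the olfactory marker protein of mature sensory neurons, lay between 888 and 1264 CPM. It was listed here for both the vomeronasal and the main olfactory pathway and does not tell the tissues apart. Nothing in the labels ties a replicate number to a litter, and each mouse counts as 1 replicate.

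Levels between genes were compared in TPM, which divide the reads by transcript length. The receptor transporter genes stood at the top of the list. Rtp1 was at 142 ± 11.1 TPM in wild type and 140 ± 12.9 TPM in the knockout (SD, n = 3 each), and Rtp2 at 77.5 ± 5.89 and 64.8 ± 7.85 TPM. Their ranges over the 6 libraries did not overlap with each other or with that of the next gene. Stoml3 followed at 41.2 ± 11.7 TPM in wild type and 36.6 ± 13.7 TPM in the knockout (SD, n = 3 each), and its range over the libraries, 20.8 to 51.8 TPM, covered that of Pde1c entirely.

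Pde1c was at 28.1 ± 2.33 TPM in wild type and Cngb1 at 27.7 ± 1.58 TPM (SD, n = 3 each), and either gene was the higher of the pair in 3 of 6 libraries. Cnga4 stood at 21.6 ± 1.42 TPM and Adcy3 at 16.5 ± 1.52 TPM in wild type. Gnal, at 14.6 ± 3.59 TPM, and Cnga2, at 9.41 ± 2.06 TPM, were the lowest 2 genes of the list. In each library Cngb1 exceeded Cnga4, Cnga4 exceeded Adcy3 and Gnal exceeded Cnga2, although the ranges of these neighbours overlapped. Adcy3 exceeded Gnal in 5 of 6 libraries. Compared with their relatives in the same libraries, the Golf subunit gene Gnal was far below Gnas, which encodes the closely related stimulatory subunit and averaged 500 TPM, and below Gnai2, at 448 TPM.

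The 3 channel genes did not appear in equal amounts. Cnga2 encodes the subunit that can form a channel by itself, while Cnga4 and Cngb1 encode subunits that modify it. Of the summed TPM of the 3 genes, Cnga2 supplied 15.9% ± 2.31 in wild type and 14.8% ± 4.01 in the knockout (SD, n = 3 each). Cnga4 supplied 36.8% ± 1.08 and 39.7% ± 1.44, and Cngb1 47.3% ± 2.08 and 45.6% ± 2.81. The share of Cnga2 ranged from 10.3% in knockout replicate 3 to 17.9% in knockout replicate 2, and it was the lowest of the 3 genes in every library. Other cyclic nucleotide-gated channel genes were near 0, with a mean of 0.20 TPM for Cnga3, 0.016 TPM for Cnga1 and 0.0022 TPM for Cngb3. These figures are RNA levels over the whole organ and do not show which cells held them.

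**Figure D1:**
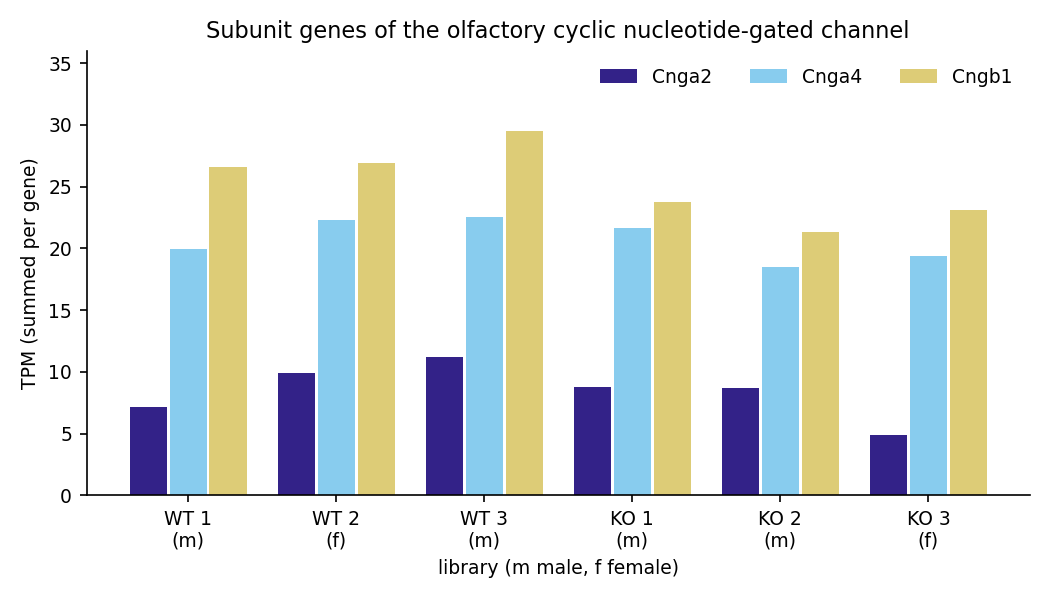
TPM of the channel subunit genes Cnga2, Cnga4 and Cngb1 in each of the 6 libraries, with bars from 0 (m male, f female). Cnga2 was the lowest of the 3 in every library, from 4.85 TPM in knockout replicate 3 to 11.2 TPM in wild-type replicate 3, and Cngb1 the highest.

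The promoters of the 3 channel genes are shown, as the 250 bases before each RefSeq start on GRCm38, 5′ to 3′ on the gene's strand. Whether these letters bear on the levels or patterns of the genes was not tested. The windows are chrX:71991599-71991848 (plus strand) for Cnga2, chr7:105404318-105404567 (plus strand) for Cnga4 and chr8:95306586-95306835 (minus strand) for Cngb1. Capitals mark matches to CCCNNGGG, the core letters of the motif bound by Ebf factors, which are transcription factors of sensory neurons. CCCNNGGG reads the same on both strands.
Cnga2: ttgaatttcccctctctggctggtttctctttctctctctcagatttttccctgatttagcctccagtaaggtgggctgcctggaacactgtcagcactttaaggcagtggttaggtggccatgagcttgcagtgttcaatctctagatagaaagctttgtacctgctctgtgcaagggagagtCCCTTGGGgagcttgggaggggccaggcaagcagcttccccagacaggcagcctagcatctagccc
Cnga4: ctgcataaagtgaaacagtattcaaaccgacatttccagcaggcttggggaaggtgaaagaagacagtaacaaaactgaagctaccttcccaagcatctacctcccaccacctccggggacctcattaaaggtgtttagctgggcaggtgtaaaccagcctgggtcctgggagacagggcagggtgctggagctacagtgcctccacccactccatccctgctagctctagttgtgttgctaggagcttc
Cngb1: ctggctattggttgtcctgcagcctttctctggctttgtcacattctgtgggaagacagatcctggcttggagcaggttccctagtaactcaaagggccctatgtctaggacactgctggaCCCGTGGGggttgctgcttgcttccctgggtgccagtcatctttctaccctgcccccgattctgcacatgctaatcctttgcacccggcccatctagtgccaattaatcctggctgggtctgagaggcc
The match in Cnga2 begins at position -66 from the start and that in Cngb1 at position -129. The window of Cnga4 holds no match to CCCNNGGG. Of the windows not printed, that of Rtp2 holds 1, and those of Adcy3, Pde1c and Stoml3 hold none, so 3 of 7 genes with a window had a match. Over all 32851 RefSeq promoter windows of this length, 11.8% hold at least 1 match, and counted per gene it is 13.4% of 27025 genes. A second motif, TAATNA of the homeodomain type, was searched in the same windows on both strands. It had 1 match each in Cnga4, Pde1c and Stoml3 and 0 in Cnga2, Cngb1, Rtp2 and Adcy3, beside 27.3% of genes with a match. A match to either motif describes the letters and not a bound site. All annotated transcripts of Cnga2 and Cnga4 that were quantified begin within 100 bases of the start used, and those beginning there held 63.4% of the reads of Cngb1. The Cngb1 window belongs to the start of its 33-exon transcript and not to that of its 21-exon transcripts.

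Loss of Cnpy1 was compared with wild type to ask whether these genes change with the genotype. None of the 9 passed the test (0 called by edgeR's quasi-likelihood test at an adjusted p under 0.05, 0 by DESeq2 and 0 by limma-voom), where 0.761% of all tested genes were called by edgeR, 2.51% by DESeq2 and 0.719% by limma-voom. At an unadjusted p under 0.05 there were 3 members by edgeR, against 10.5% of all tested genes, and the same number by DESeq2. The median log2 fold change of the 9 genes was -0.09, beside 0.01 over all genes tested. Summed over the list, the wild-type mean was 824 ± 30.1 CPM and the knockout mean 791 ± 72.5 CPM (SD, n = 3 each), or 96.0% of wild type. Without knockout replicate 3 the sum was 101% of wild type and the median log2 fold change 0.056, and without wild-type replicate 3 they were 98.0% and 0.057. They moved the other way without knockout replicate 2 (93.1% and -0.25), knockout replicate 1 (93.8% and -0.18) or wild-type replicate 1 (94.6% and -0.20).

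The 3 genes with an unadjusted p under 0.05 were Rtp2, Cngb1 and Pde1c, and in each of them all 3 knockouts lay below all 3 wild types. Such separation held for 16.2% of all genes tested, and with the knockout lower for 8.95%. Rtp2 was at 131, 136 and 128 CPM in wild-type replicates 1 to 3 and at 115, 113 and 119 CPM in knockout replicates 1 to 3. It changed by -0.19 on the log2 scale (SE 0.05, adjusted p = 0.241 by edgeR), with a 95% interval from -0.31 to -0.06. Wild-type replicate 3 and knockout replicate 3 were the nearest libraries of the 2 groups.

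Cngb1 was at 96.3, 91.2 and 94.2 CPM in the wild types and at 84.5, 82.7 and 74.0 CPM in the knockouts, where replicate 3 was the lowest. It changed by -0.22 on the log2 scale (SE 0.06, adjusted p = 0.241 by edgeR), with a 95% interval from -0.37 to -0.08. Pde1c was at 80.1, 82.0 and 84.1 CPM in the wild types and at 71.4, 74.0 and 62.4 CPM in the knockouts. The change was -0.25 on the log2 scale (SE 0.07, adjusted p = 0.245 by edgeR), with a 95% interval from -0.41 to -0.08. Under DESeq2 the adjusted p of these 3 genes was 0.0667 for Rtp2, 0.0741 for Cngb1 and 0.0719 for Pde1c, so none was called there either. In the same libraries the wild-type and knockout means of Omp were 1146 ± 108 and 928 ± 34.8 CPM (-0.31 on the log2 scale, adjusted p = 0.203 by edgeR), and those of Trpc2 were 312 ± 28.0 and 249.7 ± 17.2 CPM (SD, n = 3 each). In bulk tissue, fewer cells of a type and less RNA per cell cannot be told apart, and the part of these neuronal markers in the values of Rtp2, Cngb1 and Pde1c was not tested.

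Rtp1 had the smallest spread of the list. It was at 321, 304 and 329 CPM in the wild types and at 332, 329 and 328 CPM in the knockouts, and the groups overlapped. The change was 0.05 on the log2 scale (SE 0.05, adjusted p = 0.816 by edgeR), with a 95% interval from -0.07 to 0.18. Cnga4 was at 37.6, 37.7 and 37.5 CPM in the wild types and at 39.7, 37.3 and 32.5 CPM in the knockouts. The change was -0.04 on the log2 scale (SE 0.07, adjusted p = 0.905 by edgeR), and the knockouts lay on both sides of the wild types.

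Gnal was at 34.4, 43.7 and 54.4 CPM in the wild types and at 48.9, 55.7 and 19.3 CPM in the knockouts. The highest and the lowest library were both knockouts. It differed by -0.10 on the log2 scale (SE 0.34, adjusted p = 0.959 by edgeR), with a 95% interval from -0.88 to 0.69 that leaves room for a change either way. Stoml3 was at 33.9, 45.6 and 53.6 CPM in the wild types and at 49.6, 57.8 and 21.9 CPM in the knockouts, a difference of -0.04 with an interval from -0.77 to 0.69 (adjusted p = 0.983 by edgeR). Cnga2 was at 13.0, 19.2 and 21.3 CPM in the wild types and at 19.5, 22.04 and 8.82 CPM in the knockouts, a difference of -0.09 with an interval from -0.82 to 0.63 (adjusted p = 0.957 by edgeR). Adcy3 was at 53.3, 55.2 and 55.4 CPM in the wild types and at 66.1, 67.3 and 42.0 CPM in the knockouts. For Adcy3, 2 knockouts lay above all wild types and 1 below, and the change was 0.10 on the log2 scale (SE 0.16, adjusted p = 0.893 by edgeR). Without knockout replicate 3, the log2 fold changes of Gnal, Cnga2 and Stoml3 were 0.24, 0.22 and 0.27, all above 0 and still not called, and without wild-type replicate 3 they were 0.08, 0.06 and 0.12. The values moved down without knockout replicate 2 (-0.37, -0.34 and -0.31), knockout replicate 1 (-0.24, -0.21 and -0.16) or wild-type replicate 1 (-0.25, -0.27 and -0.20). Adcy3 was at 0.29 without knockout replicate 3, at -0.017 without knockout replicate 2 and at 0.00060 without knockout replicate 1, and none of these fits called any of the 4 genes.

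**Figure D2:**
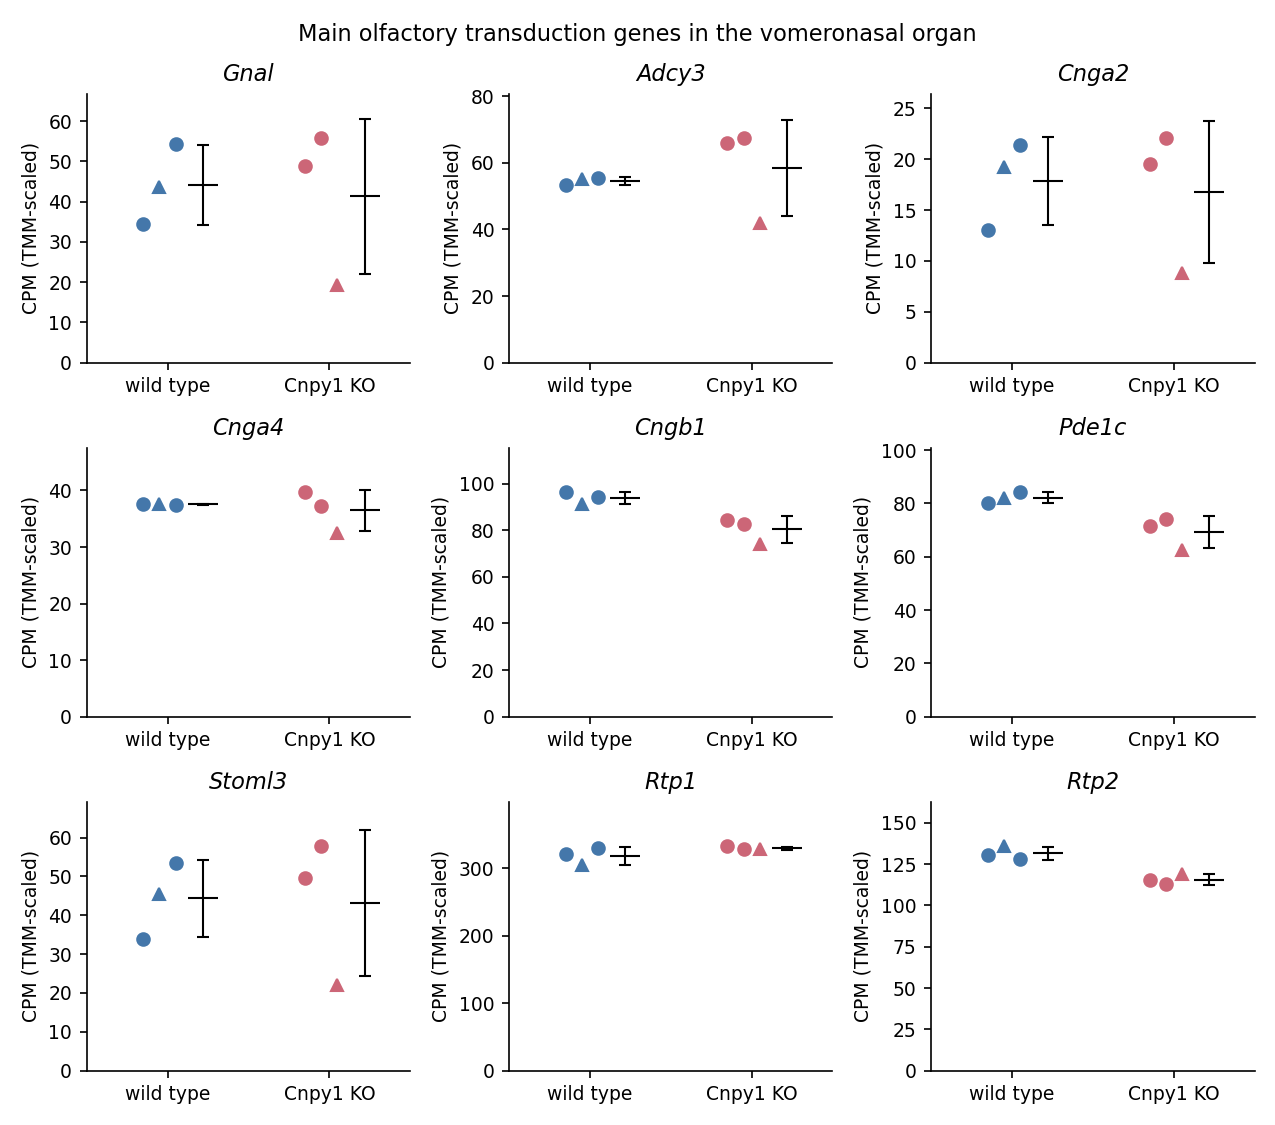
TMM-scaled CPM of each of the 9 genes in every library, wild type in blue and Cnpy1 knockout in red, circles for males and triangles for females, with the mean and SD of 3 mice in black. Rtp2, Cngb1 and Pde1c do not overlap between the groups, and the female knockout is the lowest library for 7 of the 9 genes, all but Rtp1 and Rtp2.

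**Figure D3:**
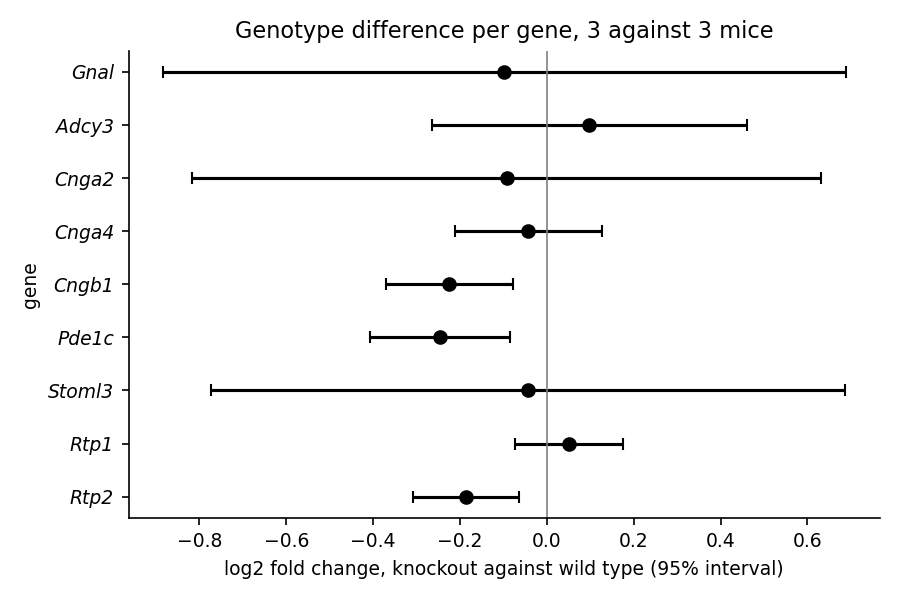
Log2 fold change of each gene, knockout against wild type, with its 95% interval from the edgeR fit (3 against 3 mice). The intervals of Gnal, Cnga2 and Stoml3 are the widest and span 0, and those of Rtp2, Cngb1 and Pde1c lie below 0 before adjustment over all genes.

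The libraries differed more than the genotypes for some members and hardly for others. From the lowest to the highest library, Gnal varied 2.88-fold, Stoml3 2.63-fold and Cnga2 2.50-fold in CPM. Of the 10793 tested genes that averaged 10 CPM or more, the median was 1.18-fold, and only 1.60% varied at least 2-fold. Adcy3 varied 1.60-fold. For Pde1c, Cngb1, Cnga4 and Rtp2 the figures were 1.35, 1.30, 1.22 and 1.202. For Rtp1 it was 1.09, and only 9.72% of those genes varied less.

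Gnal, Cnga2 and Stoml3 followed the same pattern over the libraries, with Pearson r of log2 CPM between 0.99 and 1.00 for each pair (n = 6 libraries, which share their depth and dissection). Knockout replicate 3 was the lowest library for all 3 genes and wild-type replicate 1 the second lowest, and knockout replicate 2 was the highest. Adcy3 had r of 0.89 with Gnal, and Cnga4 0.85. For Cngb1 and Pde1c, r with Gnal was 0.55 and 0.68, and the r between these 2 genes was 0.95. Rtp1 and Rtp2 had r of 0.04 and -0.04 with Gnal. Knockout replicate 3 was the lowest library for 7 of the 9 genes, all but Rtp1 and Rtp2, whereas it was the lowest for 17.9% of 14759 other genes that averaged 1 CPM or more.

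The 5 genes whose pattern was most like the mean of the 9 members, among these 14759, were Shisa2 (r = 0.993), Prss33 (0.991), Olfr281 (0.988), Cyp2g1 (0.984) and Cyp1a2 (0.983), each over 6 libraries and given as a description. The members were averaged as centred log2 CPM without scaling, so those with the largest spread weigh most. The SD over the libraries was 0.58 for Gnal, 0.53 for Stoml3 and 0.52 for Cnga2, but 0.11 for Rtp2 and 0.05 for Rtp1. The 5 genes are therefore not alike to each member. Cyp2g1 and Cyp1a2 encode cytochrome P450 enzymes of nasal epithelium and belong to the list of markers of sustentacular cells, the supporting cells of the main olfactory epithelium. Cyp2g1 was at 71.4, 93.7 and 116 CPM in the wild types and at 88.4, 118 and 40.7 CPM in the knockouts, with the lowest 2 and the highest library the same as for Gnal. Olfr281, an odorant receptor gene, ranged from 0.878 CPM in knockout replicate 3 to 5.82 CPM in wild-type replicate 2, a 6.62-fold difference. Prss33 varied 4.69-fold, from 1.04 CPM in knockout replicate 3 to 4.88 CPM in knockout replicate 2, and Shisa2 only 1.21-fold. None of the 5 genes was called between the genotypes (edgeR adjusted p from 0.892 to 0.952).

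The whole sustentacular list of 6 genes divided in the same way. Sec14l3 varied 4.49-fold, Cyp1a2 2.98-fold, Cyp2g1 2.90-fold and Ugt2a1 2.69-fold between libraries, each lowest in knockout replicate 3, and Ermn, also lowest there, 1.93-fold. Cbr2, the most abundant of the list at 1540 to 1703 CPM, varied 1.11-fold. The summed list lay between 1992 and 2245 CPM in wild type and between 1831 and 2220 CPM in the knockout, and 0 of 6 genes were called. Of the 5 listed markers of main olfactory neurons, S100a5, a calcium-binding protein gene of olfactory neurons, was at 19.6, 25.5 and 25.5 CPM in the wild types and at 21.5, 28.2 and 12.1 CPM in the knockouts, with r = 0.96 with Gnal. Lhx2, Emx2 and Gfy had r between -0.04 and 0.06 with Gnal, and Kirrel2, a cell adhesion gene of sensory axons, had r = -0.24. None of these 5 was called. Their sum ranged from 1944 to 2062 CPM over the wild types and from 1522 to 1814 CPM over the knockouts, without overlap. Of the 5 genes, only Kirrel2 separated the groups by itself, lower in the knockout (-0.61 on the log2 scale, adjusted p = 0.143 by edgeR). The groups overlapped for Gfy, the most abundant of the 5 in CPM, and for Emx2, Lhx2 and S100a5. Among all genes tested, 16.2% separated the groups. The summed odorant receptor genes (1404 with symbols that start with Olfr) were at 166, 195 and 254 CPM in the wild types and 211, 253 and 144 CPM in the knockouts, and this sum was again lowest in knockout replicate 3. Of the 29 receptor genes that averaged 1 CPM or more, 11 were lowest in that library. The r with Gnal was over 0.8 for 11 of the 29, beside 2.38% of the 14759 genes, and its median was 0.38, beside -0.0026. Whether tissue of the main olfactory epithelium had a part in the spread of Gnal, Cnga2 and Stoml3 was not tested.

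**Figure D4:**
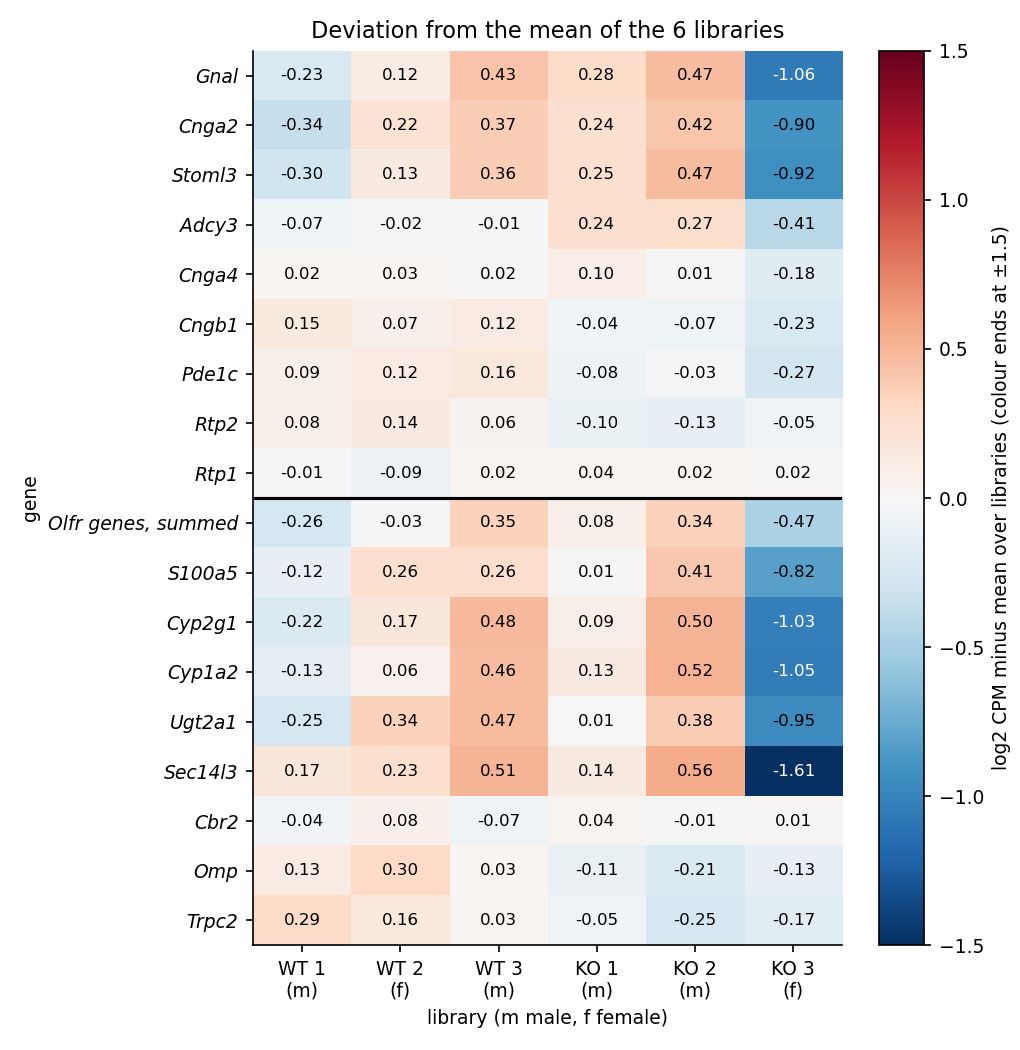
Log2 CPM of each gene in each library minus its mean over the 6 libraries, for the 9 genes (above the line) and for the summed Olfr genes, S100a5, sustentacular markers and neuronal markers chosen after the values were seen (below it). Gnal, Cnga2 and Stoml3 share with S100a5 and Cyp2g1 a low value in knockout replicate 3 (Gnal -1.06, Cyp2g1 -1.03), while Rtp1, Rtp2, Cbr2, Omp and Trpc2 are lowest in other libraries. The listed main olfactory neuron markers Lhx2, Emx2, Gfy and Kirrel2, with r from -0.24 to 0.06 with Gnal, are not drawn. Neither is the sustentacular marker Ermn.

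Other genes of the main olfactory pathway were read from a list of 15, all tested. None was called by edgeR, 12 lay below 0, and their median log2 fold change was -0.12, beside 0.01 over all genes. Among the most abundant were Gfy, Gnb1 and Calm2, a calmodulin gene, with means of 1084, 881 and 822 TPM. Gnb1, a G protein beta subunit gene, had a wild-type mean of 2086 ± 105 CPM and a knockout mean of 1790 ± 135 CPM (SD, n = 3 each; -0.22 on the log2 scale, adjusted p = 0.353 by edgeR). Ano2, named after its values were seen, encodes a calcium-activated chloride channel found in olfactory cilia and in vomeronasal microvilli. It was at 92.2, 93.1 and 96.0 CPM in the wild types and 80.1, 80.6 and 74.0 CPM in the knockouts (-0.26 on the log2 scale, adjusted p = 0.107 by edgeR), and Ano2 and Omp were called by DESeq2 (adjusted p = 0.00431 and 0.00635). Ric8b, named likewise, encodes a factor that assists the product of Gnal, and had r = 0.90 with Gnal, with values from 26.96 to 37.6 CPM. Among 7 cilium transport genes, of which Kif3a, Bbs4, Arl13b and Ift88 were the most abundant, 0 were called, with a median log2 fold change of -0.06 and ranges of 1.09-fold to 1.28-fold over the libraries.

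Relatives of the 9 genes were measured for comparison. Of 24 listed, 19 were tested, and 2 were called, both lower in the knockout, where 0.761% of all tested genes were called by edgeR. Stom, the gene of stomatin and a relative of Stoml3, was at 1026, 1093 and 1082 CPM in the wild types and 815, 825 and 853 CPM in the knockouts (-0.36 on the log2 scale, SE 0.06, adjusted p = 0.0356 by edgeR). It was at 491 TPM on average, well above the 38.9 TPM of Stoml3, and its call was lost in each of the 6 fits that left out 1 library (adjusted p from 0.0698 to 0.202). Gnao1, the G protein subunit gene of basal vomeronasal neurons and also the single call among 8 vomeronasal transduction genes, was at 305, 306 and 320.0 CPM in the wild types and 239.5, 224 and 237 CPM in the knockouts (-0.41 on the log2 scale, SE 0.05, adjusted p = 0.0143 by edgeR). Its call held in 1 of those 6 fits, the one without knockout replicate 3 (adjusted p from 0.0394 to 0.0854 over the 6). Both genes also lost their call without scaling factors (edgeR adjusted p = 0.0691 for Gnao1 and 0.133 for Stom) and in males only (0.146 and 0.209). The same held without wild-type replicate 1 and knockout replicate 3, the libraries of lowest odorant receptor reads (0.108 and 0.129). Over all alternatives the log2 change of Gnao1 stayed between -0.44 and -0.38 and that of Stom between -0.41 and -0.34. Among the other adenylyl cyclase genes, Adcy5, Adcy6 and Adcy2 stood at 21.1, 16.2 and 10.9 TPM beside 16.4 TPM for Adcy3, and none of them was called. Rtp4, another receptor transporter gene, was at 53.7 TPM, between Rtp2 and Stoml3, while Rtp3 was near 0 at 0.0371 TPM.

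Further lists describe cells that the dissection could hold, and none had a called gene. Markers of the guanylyl cyclase D neurons of the main olfactory epithelium gave 0 called of 3 tested, and Gucy2d, which defines them, was at 0.0497 TPM. Summed CPM in wild type and in the knockout lay between 212 and 241 and between 243 and 261 for ciliated cells, and between 10.5 and 12.5 and between 12.4 and 15.7 for solitary chemosensory cells. The ranges were 171 to 203 and 176 to 209 CPM for progenitors and immature neurons, 110 to 121 and 117 to 132 for immune cells, 2215 to 2704 and 2358 to 2687 for vessels and muscle, and 117 to 145 and 111 to 179 for glia. Erythroid markers lay between 203 and 337 CPM in wild type and between 217 and 398 CPM in the knockout, and cartilage markers between 4.14 and 13.8 CPM and between 4.08 and 4.45 CPM. Of the lists in this paragraph that are given as sums, the ciliated cell markers were the ones whose ranges did not overlap, higher in the knockout, with a median log2 fold change of 0.14. None of the 7 ciliated cell genes separated the groups by itself, and 0 had an unadjusted p under 0.05.

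Each genotype had 1 female, so a difference between sexes and a difference between single mice cannot be told apart. Between the females, knockout replicate 3 and wild-type replicate 2, the log2 ratio of CPM was -1.18 for Gnal, -1.12 for Cnga2, -1.06 for Stoml3 and -0.40 for Adcy3. Between the mean levels of the males it was 0.24, 0.27, 0.30 and 0.30. An interaction of sex and genotype was called for 0 of the 9 genes by edgeR, where 0.024% of all genes were called. With single libraries as the female arms, the spread in this fit comes from the 2 pairs of males alone. At an unadjusted p under 0.05 there were 4 of 9 members, against 4.5% of all genes tested, and they were Adcy3 (adjusted p = 0.410), Gnal (0.889), Stoml3 (0.957) and Cnga2 (0.958). These 4 genes moved together over the libraries, with pairwise r from 0.87 to 1.00 and a shared low value in knockout replicate 3, so they are not 4 separate observations. For Rtp2, Cngb1 and Pde1c the knockout was lower in the females (log2 ratios of -0.19, -0.30 and -0.40) and in the males (-0.18, -0.19 and -0.18). Leaving out 1 male leaves a single library in 3 of the 4 combinations of sex and genotype, so that the spread comes from the remaining pair of males and is assumed for the lone libraries. Of these 4 fits, the one without wild-type replicate 3 called Gnal, Cnga2 and Stoml3 (edgeR adjusted p = 0.0329, 0.0425 and 0.0425), and the other 3 called none of them (adjusted p from 0.0780 to 0.577).

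The deposited values are per transcript, which allowed the annotated forms of each gene to be read apart. Rtp1 had 1 annotated transcript, and 1 transcript held over 95% of the reads of Rtp2, Cnga2, Cnga4 and Stoml3. By TPM, its shares over the 6 libraries were 99.8%, 89.7%, 99.6% and 86.5% for these genes. For Cnga2 the share by TPM was 85.5% in wild type and 93.9% in the knockout, and 75.0% in the lowest library. Cngb1 is known to have a longer form in rod photoreceptors and a shorter one in olfactory neurons. Its 33-exon transcript Cngb1-202 that begins at the start shown above held 64.2% ± 3.71 of the estimated reads in wild type and 62.6% ± 1.16 in the knockout (SD, n = 3 each). By TPM, its share was 46.6% over the 6 libraries. The 21-exon transcripts Cngb1-204 and Cngb1-203, which begin at positions 95281610 and 95281590 on chromosome 8, held 18.7% ± 2.93 and 17.01% ± 1.12 of the reads in wild type. In Adcy3, the 21-exon transcript Adcy3-201 held 53.1% ± 2.32 of the reads in wild type and 53.8% ± 1.54 in the knockout, and Adcy3-207, with a start further upstream, 25.6% ± 2.88 and 26.4% ± 1.71 (SD, n = 3 each). Both forms of Adcy3 were lowest in knockout replicate 3, at 22.6 and 10.7 CPM, and varied 1.64-fold and 1.75-fold over the libraries.

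In Gnal (chromosome 18, 67088216 to 67226792), Gnal-201 held 87.5% ± 1.21 of the reads in wild type and 87.4% ± 1.00 in the knockout (SD, n = 3 each). Gnal-204, which begins further inside the gene at 67132983, held 8.75% ± 1.53 and 9.66% ± 1.73. By TPM, in which the shorter Gnal-204 weighs more, the shares over the 6 libraries were 61.9% for Gnal-201 and 33.3% for Gnal-204. Both were lowest in knockout replicate 3, at 17.1 and 1.501 CPM. In Pde1c, Pde1c-201 held 70.3% ± 0.859 of the reads in wild type and 70.9% ± 2.05 in the knockout. The share of the leading transcript did not separate the genotypes for Adcy3, Cngb1, Gnal or Pde1c (two-sided exact permutation p = 0.8, 0.7, 0.9 and 0.7, where 3 against 3 mice cannot go below 0.1). These shares are estimates made without read positions, and reads shared between forms are divided by the estimate.

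The 9 genes lie on 8 chromosomes, none of them on chromosome 5, which carries Cnpy1. Rtp1 (23429133 to 23433960) and Rtp2 (23925548 to 23932394) both lie on chromosome 16 of GRCm38, 491588 bases apart. They share 0.809% of the 31-base sequences of the Rtp1 transcript, and at least 99.05% of the 31-base sequences of Rtp1, Rtp2, Cnga2, Cnga4, Cngb1, Pde1c and Stoml3 occur in no other gene. For Gnal the figure is 92.0%, with 7.26% shared with Mppe1, and for Adcy3 it is 80.0%, with 20.03% shared with Cenpo. The levels of Gnal and Adcy3 are less certain to that extent.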

How the data were processed

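For each library the deposited files list 117081 transcripts, each with an estimated count, a TPM value and an effective length, per the file headers. Salmon 1.9.0, Trim Galore 0.6.6 and DESeq2 are named with builds mm10 and GRCm38 in the submitters' processing notes. The index used is not given in the sources used here. Transcripts were joined by identifier to GENCODE M21 (GRCm38), where 115942 matched. The others held 0.304% of the reads and were left out. The deposited estimated counts were added up per gene and rounded to whole numbers, and the deposited TPM were summed per gene and used for levels between genes.

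Genotypes were compared with edgeR 4.0.16 in R 4.3.3 by its quasi-likelihood test, after TMM scaling and the filterByExpr filter. The model held no term beside genotype, and p-values were adjusted by Benjamini-Hochberg over all genes tested. Genes with an adjusted p under 0.05 are called. SE is the fold change divided by the square root of F. Replicates are separate mice. Alternatives were DESeq2 1.42.0, limma-voom (limma 3.58.1), other scaling, filters, terms and samples. The members and lists were chosen with earlier results of these data known. The text names the 9 members, called genes, the 4 genes of highest TPM in the pathway and cilium lists, and the 5 genes most like the unscaled mean of the members. One gene that this rule names is not reported here. Cell type lists are given as sums, and genes of the relatives and marker lists that show a pattern were named after their values were seen. Python 3.11.15 was used. RefSeq promoter windows (GRCm38.p6) were read for 7 of the 9 members. That of Gnal was not used here.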

Additional observations from a re-analysis of the deposited data

How the results depend on the processing

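None of the 9 genes was called under any of the 16 alternatives of the genotype fit, and Rtp2, Cngb1, Pde1c and Rtp1 kept their direction in all of them. The lowest adjusted p was 0.0667 for Rtp2 (DESeq2). In males only, Gnal, Cnga2, Cnga4 and Stoml3 changed sign (0.24, 0.27, 0.035 and 0.29). Without both libraries of lowest odorant receptor reads (wild-type replicate 1 and knockout replicate 3), an alternative chosen after the data were seen, they were 0.092, 0.033, 0.034 and 0.11, and 71 genes were called overall. DESeq2 called 411 genes, 2 of them (Ano2 and Omp) among the 22 other pathway and cilium genes, where edgeR called 127 and 0, and males only gave 76. Leaving out 1 library at a time gave from 69 to 96 calls, a member median from -0.25 to 0.057, and log2 fold changes from -0.37 to 0.24 for Gnal, -0.34 to 0.22 for Cnga2, -0.11 to 0.034 for Cnga4, -0.31 to 0.27 for Stoml3 and -0.017 to 0.29 for Adcy3. Leaving out 1 male at a time, the interaction ranged from -1.78 to -1.12 for Gnal, -1.80 to -1.09 for Cnga2, -1.72 to -1.06 for Stoml3 and -0.023 to 0.0084 for Rtp2. The difference in the leading transcript's share ranged from -0.51 to 1.80 percentage points for Adcy3, -0.26 to 1.74 for Pde1c, -0.72 to 0.48 for Gnal and -2.87 to 0.51 for Cngb1. Fits on fewer samples have less power, and the cause of the other changes was not tested. The replicate numbers do not pair the mice in the labels, and the deviations of same-numbered libraries from their group means had r across genes of 0.15, -0.09 and 0.23. With the replicate number as a block, 154 genes and 0 members were called, and the log2 fold changes were -0.19 for Rtp2, -0.23 for Cngb1, -0.25 for Pde1c and -0.19 for Gnal, and Stom lost its call (adjusted p = 0.0573). The intervals of Gnal, Cnga2 and Stoml3 were the widest of the list. With 1 library per mouse, spread between mice and spread from the dissection cannot be told apart for them.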
